A study of Bos indicus with 8 samples.

Results

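The genes described here are BMP2, BAMBI, ID1, ID2, ID3, ID4, SMAD6, SMAD7, GREM1 and SKIL, which belong to signalling by bone morphogenetic proteins (BMPs) and their SMAD effectors in bovine cumulus cells. They were found by gene symbol in the platform's probe annotation, which gave 15 probes for 9 of the 10 genes among 43794 probes on the array. ID4 has no probe under its symbol in that annotation and is named only. The members were chosen when their adenosine over control ratios on all 8 arrays were already known. Those ratios are therefore given as a description, with no test on any member.

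BMP ligands bind paired type I and type II receptor kinases, which phosphorylate SMAD proteins that join the common partner SMAD4 and enter the nucleus. The ID genes are among the best known direct targets of this signal, and the pathway limits itself through secreted antagonists such as gremlin, a pseudoreceptor (BAMBI), inhibitory SMADs (SMAD6 and SMAD7) and the co-repressor SKIL. In the ovarian follicle the oocyte supplies BMP15 and GDF9, granulosa and theca cells make further BMPs, and cumulus cells, which surround the oocyte, respond to them.

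RNA came from cumulus cells of cumulus-oocyte complexes, taken from slaughterhouse ovaries (species given as Bos indicus) out of follicles measuring 3 to 6 mm. The adenosine group was cultured for 6 h with 3 mM adenosine, a purine nucleoside, and the control group for the same time without it. The medium of both groups was HEPES-buffered Tyrode lactate with recombinant human follicle-stimulating hormone (FSH, 0.5 µg/ml), oestradiol (1 µg/ml), fetal bovine serum (10%), pyruvic acid at 0.2 mM and the antibiotic gentamicin at 50 µg/ml. Each group had 4 pools of 10, in units that the labels do not name, and each adenosine pool was set against the control pool of its own number on 2 arrays with the dyes exchanged: in an adenosine-Cy5 array the adenosine pool carries the red dye, and in an adenosine-Cy3 array the green one. The serum and the oocytes of the cultured complexes are further sources of TGF-beta family ligands that both groups share. No array holds cells from before culture, so lower or higher means relative to control pools at 6 h.

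All values below are log2 values: a level is the single-channel signal of 1 pool averaged over its 2 arrays, and a ratio is adenosine over control, averaged over the 2 arrays of a pool pair and given with the SD over the 4 pairs. A probe was kept for the fit when it exceeded the negative control spots (mean plus 2 SD) in both arrays of at least 3 pools of either group. Of the member probes 12 of 15 were kept, covering 7 genes; the only probes of ID1 and SMAD7 and 1 probe of ID3 were not. In the limma fit over all 31948 kept probes, 42.4% of 12320 named genes, each read from its brightest kept probe, had an adjusted p under 0.05, 21.7% higher and 20.8% lower. Over probes the share was 37.1%, with 18.6% higher and 18.4% lower. Of the 7 kept members 5 were past that threshold, all lower with adenosine, and because that contrast was known when they were chosen nothing is read from this share. ID2 was not past it when pair 1, 2 or 4 was left out, and with no filter ID1 was past it in place of ID2. GREM1 was not kept under a stricter filter. SMAD6 was past the threshold, as higher, without pair 1 and on the adenosine-Cy3 arrays alone. As a description only, pool levels did not overlap between groups for 31% of all genes and for 5 of these 7 (BMP2, BAMBI, ID2, GREM1 and SKIL). On 7 arrays between 71.1% and 87.4% of probes exceeded the negative controls in a channel, and the adenosine-Cy3 array of pair 3 had only 45.4% in its adenosine channel and 41.3% in its control channel. The number of pool pairs (4) limits the precision, since the 2 arrays of a pair hold the same RNA. In pooled RNA, fewer cells of a type and less RNA per cell cannot be told apart.

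BMP2 was the member with the largest difference: its level lay near the dim end of the array in adenosine pools and among the bright probes in control pools. BMP2 encodes a secreted ligand of the BMP class that signals through type I receptors such as BMPR1A and BMPR1B. Its levels were 7.74, 7.02, 8.0 and 7.31 in adenosine pools 1 to 4, against 13.43, 13.59, 13.93 and 14.12 in control pools 1 to 4. The groups were far apart, with the highest adenosine pool below the lowest control pool. The ratio was -6.25 ± 0.53 (SD, n = 4 pool pairs), or 76.1-fold lower with adenosine. The probe exceeded the negative controls in 8 of 8 adenosine channels and 8 of 8 control channels, so the ratio rests on a measured signal on both sides. With an offset of 0 in the background correction in place of 50, the ratio was -7.00.

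BAMBI encodes a transmembrane protein that resembles a type I receptor without its kinase domain and dampens BMP and TGF-beta signals. Its brightest probe had levels of 9.49, 9.32, 9.31 and 8.98 in adenosine pools 1 to 4, against 12.75, 13.07, 12.91 and 12.77 in control pools. Pools within a group differed little beside the gap between groups. The ratio of that probe was -3.60 ± 0.24 (SD, n = 4), 12.2-fold lower with adenosine. A second probe stood at -3.59 ± 0.17, with levels of 6.85 to 7.38 in adenosine pools and 10.58 to 10.89 in control pools. The 2 brighter probes thus gave nearly the same ratio at the offset of 50, but -3.92 and -4.48 with an offset of 0. The third and dimmest probe stood at -0.58 ± 0.10, with levels of 6.13 to 6.24 in adenosine pools, where 4 of 8 channels exceeded the negative controls, and 6.62 to 6.90 in control pools, where 7 of 8 did. It was kept only through the control pools, and its ratio was the one that depended most on the background: -1.56 with an offset of 0. The mean over the 3 probes was -2.59.

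Levels of BMP2 and BAMBI in adenosine pools lay below every control pool, whereas those of ID3 and SMAD6 overlapped between the groups.

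**Figure D1:**
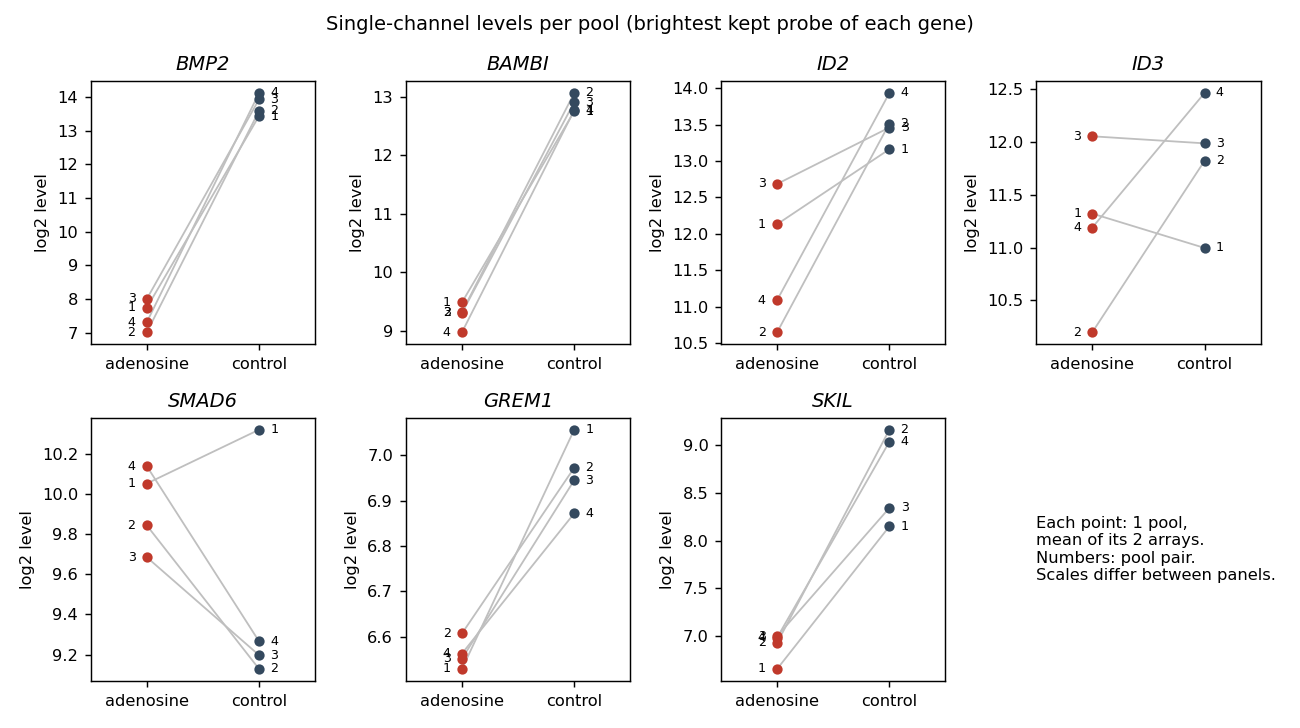
Single-channel log2 level (vertical axis, scale differs between panels) of the brightest kept probe of 7 genes in each adenosine pool (left in each panel) and each control pool (right); grey lines join pools of the same number. BMP2 lies between 7.02 and 8.0 in adenosine pools and between 13.43 and 14.12 in control pools, while the points of ID3 and SMAD6 overlap.

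GREM1 encodes gremlin, a secreted protein that binds BMP2 and BMP4 and which expanding cumulus cells of cattle and mice are known to make. Its single probe was dim in both groups, at 6.53, 6.61, 6.55 and 6.56 in adenosine pools 1 to 4, against 7.06, 6.97, 6.94 and 6.87 in control pools. The groups did not overlap, but they lay close together. The ratio was -0.40 ± 0.09 (SD, n = 4), 1.32-fold lower with adenosine, and as for other dim probes its size moved with the processing, to -0.80 with an offset of 0 and to -0.72 in the authors' value table.

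The inhibitory SMADs compete with receptor-activated SMADs and recruit ubiquitin ligases to the receptors, and SMAD6 acts mainly on BMP signals. SMAD6 was the single kept member whose mean ratio was above 0. Its levels were 10.05, 9.84, 9.69 and 10.14 in adenosine pools 1 to 4, against 10.32, 9.13, 9.20 and 9.27 in control pools. Control pool 1 was higher than every adenosine pool, and the other 3 control pools were lower than all 4. The ratio was 0.45 ± 0.51 (SD, n = 4), with -0.27 in pair 1 and 0.49 to 0.87 in the other pairs, and 0.69 without pair 1. It was 0.11 over the adenosine-Cy5 arrays, 0.80 over the adenosine-Cy3 arrays and 0.09 when each array was centred on its median in place of loess. SMAD7, the inhibitor that acts on both TGF-beta and BMP receptors, exceeded the negative controls in 1 of 8 adenosine channels and 6 of 8 control channels and was not kept. Its levels were 6.07 to 6.29 in adenosine pools and 6.14 to 6.30 in control pools, and a difference was not detectable at this signal.

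SKIL, also known as SnoN, is a nuclear co-repressor that binds SMAD2, SMAD3 and SMAD4. Its levels were 6.66, 6.93, 7.0 and 6.98 in adenosine pools 1 to 4, against 8.15, 9.17, 8.35 and 9.04 in control pools. Every adenosine pool was lower than every control pool, and the control pools were the more widely spread group. The ratio was -1.78 ± 0.43 (SD, n = 4), 3.44-fold lower with adenosine, and -2.55 with an offset of 0.

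The ID proteins lack a DNA-binding region and hold back basic helix-loop-helix factors by pairing with E proteins. ID2 was bright in both groups, at 12.13, 10.65, 12.69 and 11.09 in adenosine pools 1 to 4, against 13.16, 13.51, 13.46 and 13.93 in control pools. All adenosine pools were lower than all control pools, but by unequal amounts. The 4 pairs in order gave -1.03, -2.87, -0.77 and -2.84, with a mean of -1.88 ± 1.13 (SD, n = 4), 3.68-fold lower. With 1 pair left out, the mean lay between -1.55 (without pair 2) and -2.25 (without pair 3).

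ID3 had 5 probes, of which 4 were kept. The brightest had levels of 11.32, 10.20, 12.05 and 11.19 in adenosine pools 1 to 4, against 11.00, 11.82, 11.99 and 12.46 in control pools, and the groups overlapped. Over the 4 pairs in order it gave 0.33, -1.62, 0.07 and -1.27, with a mean of -0.63 ± 0.97 (SD, n = 4). The second probe followed the same course, with 0.11, -0.84, 0.15 and -0.78 in pairs 1 to 4 and a mean of -0.34 ± 0.54. The remaining 2 kept probes were dim and stood at 0.04 ± 0.08 and -0.08 ± 0.14, and the probe that was not kept at -0.04 ± 0.11.

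ID1, often used as a readout of BMP signals, was near background. Its probe exceeded the negative controls in 1 of 8 adenosine channels and 6 of 8 control channels and was not kept. Its levels were 6.07, 6.02, 6.05 and 6.02 in adenosine pools 1 to 4, against 6.15, 6.12, 6.19 and 6.27 in control pools. The ratio was -0.14 ± 0.07 (SD, n = 4), at signals near the floor of the array.

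Across the 8 arrays, the ratios of BMP2 ran from -5.47 to -7.03, those of the 2 brighter BAMBI probes from -2.98 to -4.18 and those of SKIL from -1.17 to -2.52, with the same sign on every array. ID2 ran from -0.75 to -2.92, again with 1 sign. The brightest ID3 probe ran from 0.46 to -1.67 and SMAD6 from -0.66 to 1.20, and both changed sign between arrays.

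**Figure D2:**
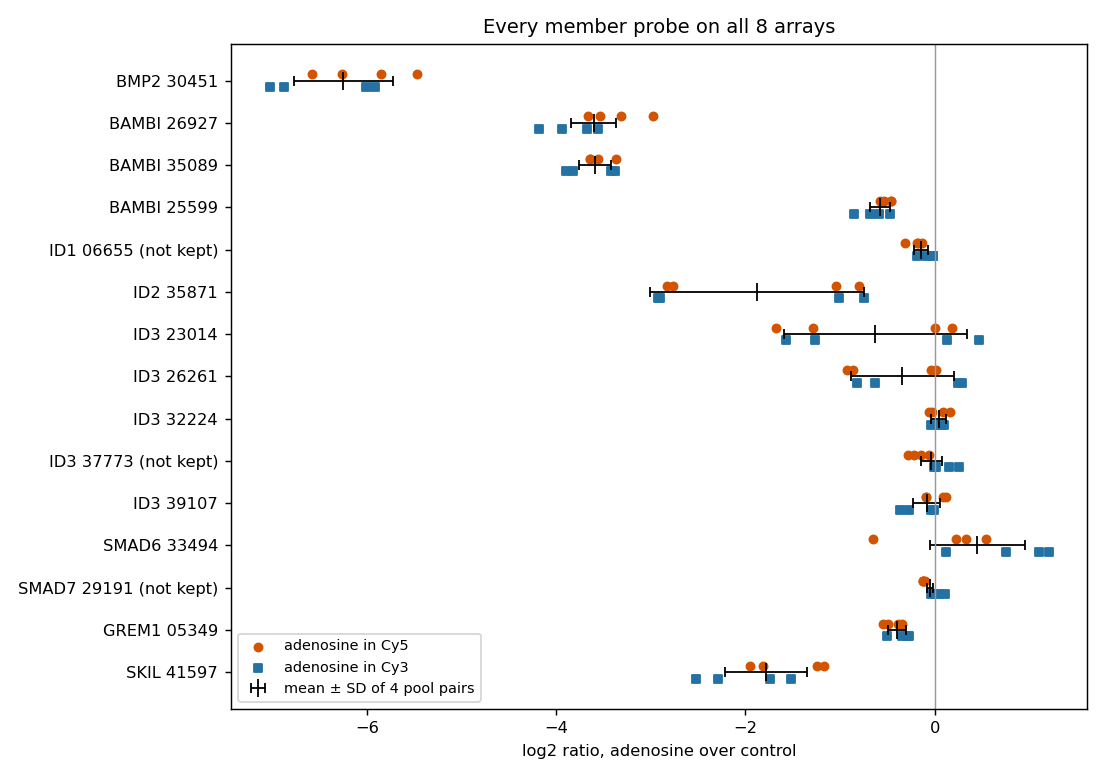
Log2 ratio of adenosine over control (horizontal axis) for each of the 15 member probes, with its last 5 digits in the platform's numbering, on the 4 adenosine-Cy5 arrays (circles) and the 4 adenosine-Cy3 arrays (squares); black bars are the mean ± SD of 4 pool pairs. The 2 brighter BAMBI probes lie together at -3.60 and -3.59, apart from the third at -0.58, and ID2 splits into arrays near -1 and arrays near -3.

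In all 7 kept members pairs 2 and 4 lay on the same side of pairs 1 and 3. For BMP2, BAMBI, ID2, ID3 and SKIL the ratios of pairs 2 and 4 both lay below those of pairs 1 and 3, and for SMAD6 and GREM1 they both lay above. Among all 12320 genes pairs 2 and 4 lay on the same side of pairs 1 and 3 in 41.1% (23.4% below, 17.7% above), and among the 59 kept genes of the wider pathway in 42.4%. This grouping of the pairs was noticed in these values and has no label behind it, so it is given with no test. Because the members' own ratios gave the grouping, the share over all genes cannot show that the members stand out in it. The gap between the means of pairs 2 and 4 and of pairs 1 and 3 was -1.95 for ID2, -1.64 for ID3, -0.88 for BMP2, -0.72 for SKIL, -0.34 for BAMBI, 0.69 for SMAD6 and 0.12 for GREM1, where the median size over all genes was 0.10. Such gaps grow with the spread over pairs, so that median is no yardstick either. The pair SD exceeded that of 99.8% of genes for ID2, 99.6% for ID3, 95.5% for BMP2 and 94.7% for SMAD6. It exceeded that of 91.2% for SKIL, 71.0% for BAMBI and 39.6% for GREM1. For ID2 the mean level of pools 2 and 4 was 10.87 against 12.41 in pools 1 and 3 with adenosine, and 13.72 against 13.31 in control. For SKIL it was 6.96 against 6.83 with adenosine and 9.10 against 8.25 in control. The gap thus lay mainly in the adenosine pools for ID2. For SKIL it was seen mainly in the control pools, but its adenosine levels were so dim that a gap there may not have been measurable.

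**Figure D3:**
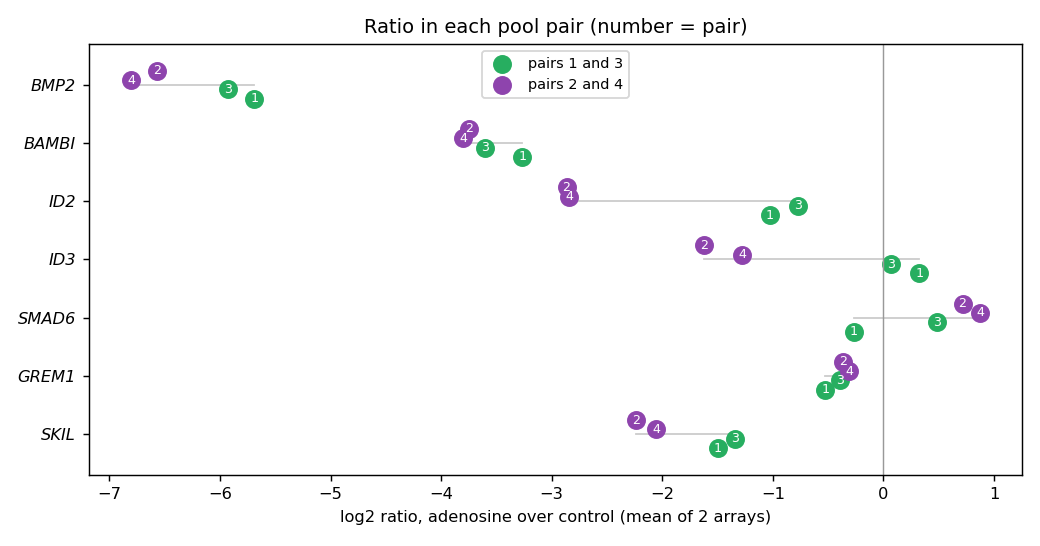
Log2 ratio of adenosine over control (horizontal axis) of the brightest kept probe of 7 genes in each pool pair, numbered 1 to 4 and averaged over 2 arrays; pairs 2 and 4 are purple and pairs 1 and 3 green. Pairs 2 and 4 lie to the left for BMP2, BAMBI, ID2, ID3 and SKIL and to the right for SMAD6 and GREM1.

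The difference between the dye orientations was not used to choose the members and could be tested. The names of the scanner files place all arrays of 1 orientation on the same slide, which no sample label states, so slide and dye cannot be told apart. In limma over all kept probes, 56.7% of genes and 55.6% of probes differed between orientations at an adjusted p under 0.05, and of the 7 kept members 5 did. The adenosine-Cy5 ratio minus the adenosine-Cy3 ratio was -0.69 for SMAD6 (limma adjusted p = 1.3e-05), 0.47 for SKIL (limma adjusted p = 4.4e-05), 0.42 for BMP2 (limma adjusted p = 0.000622), 0.46 for the brightest BAMBI probe (limma adjusted p = 0.00348) and -0.14 for the brightest ID3 probe (limma adjusted p = 0.0312). The test used the 4 pairs. ID2 (0.04, limma adjusted p = 0.483) and GREM1 (-0.09, limma adjusted p = 0.0861) did not pass. The differences were small beside the ratios of BMP2 (-6.04 on adenosine-Cy5 and -6.46 on adenosine-Cy3 arrays), BAMBI (-3.37 and -3.84) and SKIL (-1.55 and -2.02). For SMAD6 the orientation difference was larger than the mean ratio.

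The genes whose ratios over the 8 arrays came closest to those of BMP2, by root mean square difference among 12319 genes, were PLIN2 (0.56), a coat protein of lipid droplets, C27H8orf4 (0.69), COBLL1 (0.82) and the chemokine receptor CXCR4 (0.88), where the median gene was 6.27 away. Closest to the brightest BAMBI probe were IFIT5 (0.21), an interferon-induced RNA-binding protein, the AP-1 subunit FOSL1 (0.23), the adhesion scaffold NEDD9 (0.27) and the membrane protein TM4SF1 (0.28), where the median gene was 3.63 away. These likenesses come from the same ratios and are a description. The measure mainly picks genes with a mean ratio of similar size. BMP2 had rank 2 from the lowest of 12320 genes, so its closest genes were other steep falls (-5.82, -6.46, -5.81 and -5.71 in the order named). The distances of the median gene are near the sizes of the BMP2 (-6.25) and BAMBI (-3.60) ratios themselves, as most genes lay near 0.

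Among other genes of the pathway, taken from 7 role lists with 80 symbols, 73 genes had a probe and 59 a kept probe, of which 26 fell with adenosine, 5 rose and 28 did not pass (limma, adjusted p under 0.05), where 20.8% of all genes fell and 21.7% rose. The median ratio was -0.09 over the 59 genes and 0.00 over all genes. In an unpaired fit, with no replicate block, 17 fell and 2 rose, and without pair 4 there were 13 falls and 2 rises.

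Of 16 further ligands only 7 had a kept probe, of which 1 fell and 6 did not pass. BMP6, which granulosa cells and oocytes make, had levels of 6.82, 6.91, 7.01 and 6.95 in adenosine pools 1 to 4, against 8.52, 8.58, 9.73 and 8.95 in control pools, with no overlap. It fell 4.06-fold (ratio -2.02 ± 0.49, SD, n = 4, limma adjusted p = 0.00371). BMP7 had a ratio of -0.13 ± 0.15, GDF6 -0.07 ± 0.05 and NODAL 0.14 ± 0.13, and none of these passed (limma adjusted p between 0.125 and 0.191). NODAL passed without pair 1 (0.20, limma adjusted p = 0.0491) and on the adenosine-Cy3 arrays (0.24, limma adjusted p = 0.0334), with limma adjusted p up to 0.787 over the alternatives. The oocyte ligand BMP15 had 6.79 to 7.02 in adenosine pools and 6.84 to 7.04 in control pools (ratio -0.06 ± 0.10, limma adjusted p = 0.415). BMP4 and GDF9, the other oocyte ligand, were not kept.

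Receptors and co-receptors that passed were mostly lower: of 14 kept genes 7 fell, 1 rose and 6 did not pass. The riser was the BMP co-receptor RGMA, named after its value was seen, by a small amount (0.09 ± 0.02, limma adjusted p = 0.0419). Its direction turned with the dyes, at 0.21 over the adenosine-Cy5 arrays and -0.04 over the adenosine-Cy3 arrays (limma adjusted p of the difference = 0.00109), and no receptor rose without pair 1, 3 or 4 or in the unpaired fit. TGFBR2, the type II receptor for TGF-beta, had 6.54 to 6.72 in adenosine pools and 8.5 to 8.86 in control pools and fell 4.10-fold (-2.04 ± 0.13, SD, n = 4, limma adjusted p = 0.000396). That fall rests on its brightest probe. A second, dim probe gave -0.03 ± 0.08 and did not pass (limma adjusted p = 0.55). The third gave -0.13 ± 0.07 (limma adjusted p = 0.049) and was kept only through the control pools. The mean over its 3 kept probes was -0.73. ACVR1, also called ALK2, a type I receptor for BMPs, fell 2.88-fold (-1.53 ± 0.22, limma adjusted p = 0.0013). Its pool levels overlapped, at 8.39 to 9.93 with adenosine and 9.91 to 11.68 in control, and it did not pass in the unpaired fit (limma adjusted p = 0.0796). The activin receptors ACVR2A (-0.89 ± 0.18, limma adjusted p = 0.0027) and ACVR1B (-0.86 ± 0.24, limma adjusted p = 0.00548) also fell, and the mean over the kept probes of ACVR2A was -0.46. Among the BMP receptors proper, BMPR1A fell (-1.14 ± 0.54, limma adjusted p = 0.0208), with -1.13, -1.78, -0.47 and -1.18 in pairs 1 to 4. Its second probe gave -0.53 ± 0.45 and did not pass (limma adjusted p = 0.101), and the mean over its 3 kept probes was -0.58. BMPR1A did not pass without pair 1 (limma adjusted p = 0.0713) or pair 4 (limma adjusted p = 0.0932), with limma adjusted p from 0.00415 over the alternatives. BMPR1B, whose variation affects ovulation rate in sheep, was slightly lower (-0.26 ± 0.16, limma adjusted p = 0.0439). It did not pass without any 1 of the pairs, without a filter, in the unpaired fit, on adenosine-Cy5 arrays alone or without the adenosine-Cy3 array of pair 3 (limma adjusted p up to 0.305, and from 0.0198, over the alternatives). The type II receptor BMPR2 stood at -0.05 ± 0.18 and did not pass (limma adjusted p = 0.688).

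Of the receptor-regulated and common SMADs, 1 of 5 kept genes fell and 4 did not pass, each read from its brightest kept probe. SMAD2, named after its values were seen, did not pass on that probe (-0.01 ± 0.59, limma adjusted p = 0.97). Its dimmer kept probe rose (0.27 ± 0.07, limma adjusted p = 0.00795). SMAD4, the shared partner, had 9.01, 8.79, 9.45 and 8.82 in adenosine pools 1 to 4, against 10.11, 10.70, 9.87 and 10.55 in control pools, and fell 2.45-fold on its brightest probe (-1.29 ± 0.67, limma adjusted p = 0.0273). Its other probes gave -0.62 ± 0.74 and -0.05 ± 0.43, and their mean with the first, -0.65, did not pass (limma adjusted p = 0.107). The brightest probe did not pass without pair 1, 2 or 4 (limma adjusted p between 0.0767 and 0.113, with a lowest of 0.00637 over the alternatives). Of the BMP-activated SMADs, SMAD1 had a ratio of -0.23 ± 0.25 (limma adjusted p = 0.18), which passed under median centring (-0.57, limma adjusted p = 0.0264) and on adenosine-Cy3 arrays alone (-0.40, limma adjusted p = 0.0377), with limma adjusted p up to 0.698 over the alternatives. SMAD9 stood at -0.02 ± 0.03 and SMAD3, which acts for TGF-beta and activin, at -0.00 ± 0.10, and neither passed (limma adjusted p of 0.503 and 0.945). SMAD5 was not kept.

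Secreted BMP-binding proteins went in both directions, with 3 of 10 kept genes higher, 1 lower and 6 not passing. FSTL1, named after its values were seen, did not pass on its brightest probe (0.10 ± 0.49, limma adjusted p = 0.743). Of its dimmer kept probes 1 fell (-0.27 ± 0.17, limma adjusted p = 0.0484) and 1 did not pass (0.08 ± 0.22, limma adjusted p = 0.541). TWSG1, twisted gastrulation, which binds BMPs together with chordin, was bright and had 13.67 to 13.96 in adenosine pools, against 11.78 to 12.59 in control pools. It rose 3.31-fold (1.73 ± 0.26, SD, n = 4, limma adjusted p = 0.00146), and the mean over its 3 kept probes was 0.89. NBL1, a protein of the DAN family of BMP antagonists, rose 1.95-fold (0.97 ± 0.33, limma adjusted p = 0.00865), with 0.58 over adenosine-Cy5 and 1.35 over adenosine-Cy3 arrays. CHRDL1, chordin-like 1, rose 1.5-fold (0.59 ± 0.20, limma adjusted p = 0.00993) but did not pass without pair 4 (limma adjusted p = 0.0539) or in the unpaired fit (limma adjusted p = 0.0666), against a lowest of 0.000719 over the alternatives. NOG, noggin, which binds BMP2 and BMP4, fell 1.56-fold (-0.65 ± 0.10, limma adjusted p = 0.00166). Its dim probe gave -1.31 with an offset of 0.

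Regulators of SMADs inside the cell were the role list with the most falls: 11 of 14 kept genes fell, 1 rose and 2 did not pass, with a median ratio of -0.56. One of the falls, PMEPA1 (-0.26 ± 0.12, limma adjusted p = 0.0247), was kept only through the control pools, where it is higher, so the filter favoured a fall. The riser, named after its value was seen, was the ubiquitin ligase WWP1 (0.44 ± 0.21, limma adjusted p = 0.024), and no gene of the list rose without pair 1, 3 or 4 or under median centring. In the unpaired fit 5 fell and 0 rose, and without pair 4 there were also 5 falls and 0 rises. RNF111, also called Arkadia, a ubiquitin ligase that removes SMAD7 and SKIL, had the largest change among them and fell 3.26-fold (-1.71 ± 0.58, limma adjusted p = 0.00854), with -1.12, -2.33, -1.32 and -2.05 in pairs 1 to 4. The co-repressor TGIF2 (-1.04 ± 0.31, limma adjusted p = 0.00632), the endosomal protein ZFYVE16 (-0.59 ± 0.17, limma adjusted p = 0.00644) and LEMD3, an inner nuclear membrane protein that binds SMADs (-0.55 ± 0.18, limma adjusted p = 0.00825), fell as well, and the mean over the kept probes of LEMD3 was -0.27. None of these 3 passed in the unpaired fit (limma adjusted p between 0.0886 and 0.308), where the spread between pools of a group counts as error, and their lowest limma adjusted p over the alternatives was 0.00144.

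Of 8 further target genes with a kept probe 4 fell and 4 did not pass, each read from its brightest kept probe. KLF10, named after its values were seen, did not pass on that probe (0.24 ± 1.40, limma adjusted p = 0.778). Its dimmer kept probe rose (0.81 ± 0.21, limma adjusted p = 0.00455). HEY2, a repressor of the Hairy family, had 7.29 to 8.09 in adenosine pools and 9.28 to 10.45 in control pools and fell 4.73-fold (-2.24 ± 0.71, SD, n = 4, limma adjusted p = 0.00711). CDKN2B, an inhibitor of cell cycle kinases and a TGF-beta target, fell 4.59-fold (-2.20 ± 0.80, limma adjusted p = 0.0104), though not without pair 4 (-2.05, limma adjusted p = 0.0576, against a lowest of 0.000494 over the alternatives). The mean over its kept probes was -1.45. CTGF, a matricellular protein, fell 3.53-fold (-1.82 ± 0.77, limma adjusted p = 0.0153), with -0.70 in pair 3 and -1.99 to -2.45 in the others. It did not pass without pair 1, 2 or 4 (limma adjusted p between 0.0595 and 0.0678, against a lowest of 0.00319 over the alternatives). HEY1 was close to the floor (-0.15 ± 0.07, limma adjusted p = 0.0363) and did not pass when any 1 of the pairs was left out (limma adjusted p between 0.0607 and 0.144). Nor did it pass in the unpaired fit, on adenosine-Cy5 arrays alone, in the authors' value table or without the adenosine-Cy3 array of pair 3. Over the alternatives its limma adjusted p ran from 0.0146 to 0.248. Of the E proteins that ID proteins bind, TCF12 was the single gene with a probe. It fell 3.37-fold (-1.75 ± 0.26, limma adjusted p = 0.00139), with levels of 9.02 to 9.57 in adenosine pools and 10.72 to 11.26 in control pools.

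**Figure D4:**
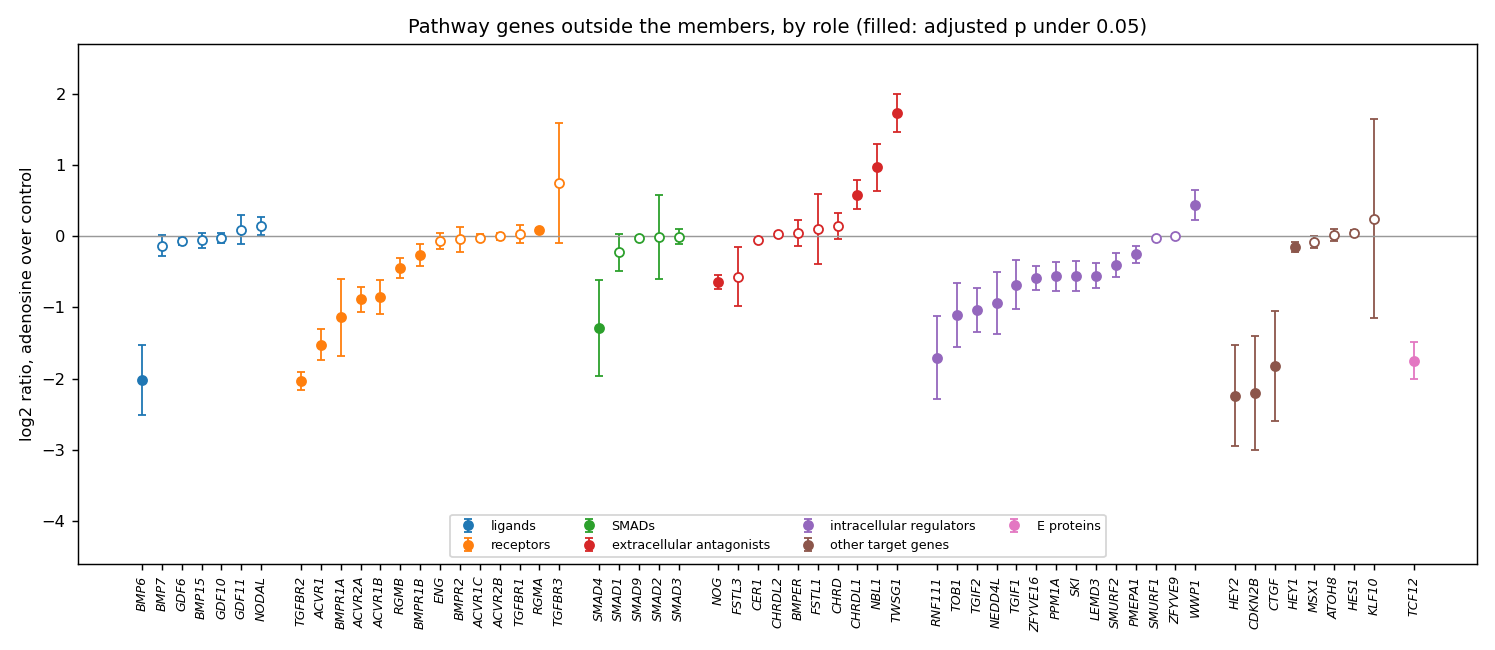
Log2 ratio of adenosine over control (vertical axis, mean ± SD of 4 pool pairs) for the brightest kept probe of 59 pathway genes outside the members, grouped and coloured by role; filled points had an adjusted p under 0.05 in limma. Intracellular regulators lie mostly below 0, and TWSG1 at 1.73 is the highest point.

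Markers of other cells were measured beside these values. The 12 oocyte markers, of which 10 were kept, had summed linear levels of 955 to 995 in adenosine pools and 939 to 1286 in control pools, and 1 rose (MOS, 0.09), 0 fell and 9 did not pass in limma, where 42.4% of all genes changed. Mean levels of these kept probes ran from 6.20 (ZP2) to 7.14 (KPNA7) with adenosine and from 6.22 to 7.29 in control. Most lay near the floor of the array, so the sums cannot show equal oocyte content. GDF9, not kept, stood at 7.22 in control pool 2 and at 6.15 to 6.19 in the other control pools. Of 8 cumulus and granulosa markers, all kept, 4 rose (INHA, FSHR, AMH and HSD17B1), 1 fell (INHBA) and 3 did not pass, with summed levels of 24279 to 34130 in adenosine pools and 33858 to 37678 in control pools. These sums mostly follow the brightest markers, INHBA (mean level 13.78 with adenosine, 14.76 in control) and INHA (13.67 and 12.76). They do not stand for the list as a whole. Of 6 stromal markers 5 were kept (COL1A2 was not), of which 3 fell, 1 rose and 1 did not pass, with summed levels of 1433 to 2151 in adenosine pools and 4834 to 6628 in control pools. The stromal sums mostly follow LUM (mean level 10.05 with adenosine, 11.66 in control) and PDGFRA (8.70 and 10.85), and do not stand for the whole list. The falls were in PDGFRA (-2.15 ± 0.50, limma adjusted p = 0.00346), LUM (-1.61 ± 0.40, limma adjusted p = 0.00407) and DCN (-0.81 ± 0.25, limma adjusted p = 0.00678), while COL1A1 (0.14 ± 0.06, limma adjusted p = 0.0347) and COL3A1 (0.05 ± 0.20, limma adjusted p = 0.68) were not lower. The part of stromal cells in the lower values of BMP2, BAMBI, ID2 and SKIL was not tested. Among 6 leukocyte markers 3 were kept and 1 fell (CD68, -0.56 ± 0.21, limma adjusted p = 0.0113), with summed levels of 404 to 1169 in adenosine pools and 418 to 1585 in control pools. Kept markers of theca (1 of 2), endothelium (2 of 4) and red cells (2 of 2) all failed to pass, with summed levels of 94.4 to 107, 158 to 161 and 165 to 196 in adenosine pools and 91.8 to 99.4, 151 to 173 and 163 to 180 in control pools. Their mean levels lay near the floor of the array, from 6.15 (HBB) to 6.67 (HBA) with adenosine and from 6.19 to 6.62 in control. These values therefore cannot show whether such cells changed.

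Other processing choices moved the sizes of the member ratios. BMP2 lay between -7.00 and -6.04 over the alternatives, ID2 between -2.25 and -1.55, SKIL between -2.55 and -1.55 and GREM1 between -0.80 and -0.35. SMAD6 lay between 0.09 and 0.80. Centring each array on its median gave 4709 higher and 7511 lower probes, where loess gave 5955 and 5892.

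**Figure D5:**
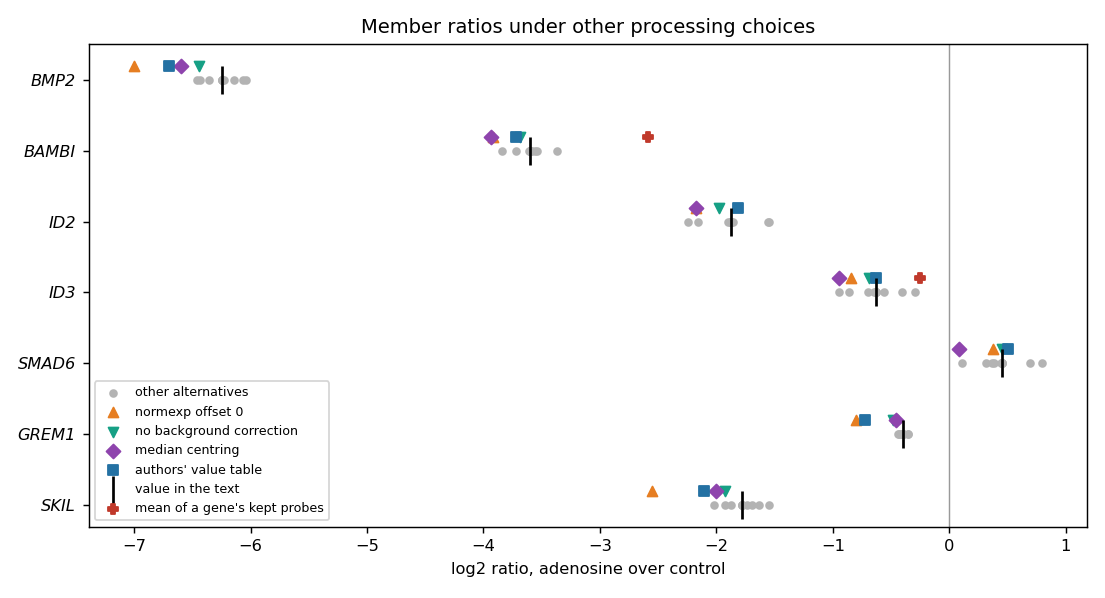
Log2 ratio of adenosine over control (horizontal axis) of 7 genes under each processing alternative; the black bar is the value in the text, coloured symbols are the alternatives named in the legend and grey points all others. BMP2 lies between -7.00 and -6.04, and the mean over its probes moves BAMBI to -2.59.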

How the data were processed

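Per the labels' protocols, pool RNA went through 2 rounds of T7 amplification before chemical Cy3 or Cy5 labelling. The deposited scanner files hold spot intensity at 532 nm (Cy3) and 635 nm (Cy5) as mean foreground and median local background, per the file headers, with no normalization. The authors' deposited value table holds log2 ratios, whose slopes on the scanner ratios (0.978 to 1.05) set their direction as adenosine over control. Its array medians were 0.00566 to 0.0524; how the authors normalized it is not given in the sources used. Another table's 8 columns have names found in no label and were left out.

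With limma 3.58.1 (R 4.3.3), intensities were corrected by normexp (offset 50) and normalized by loess within arrays, control spots having weight 0. Every ratio was set as adenosine over control, the 2 arrays of a pair were averaged, and the 4 pairs entered lmFit and eBayes; p-values were adjusted by Benjamini-Hochberg across all 31948 kept probes. Levels used Aquantile scaling after loess. Replicate numbers paired the samples: deviations of same-numbered arrays correlated between 0.763 and 0.925, and for 8 of 8 the best match had the same number. The labels call the pools biological replicates without tying them to separate animals. Outside the unpaired fit, p-values thus reflect only the spread of ratios among these pool pairs, moderated by eBayes over the tested probes.

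The members, the 7 role lists, the marker lists and the tests were chosen with earlier results of these data known. Named pathway genes were the 4 with the smallest p of each list and 12 core genes whatever their value. Of the probes, 21790 have 1 gene symbol, 0 several and 22004 none, in an annotation that can be old. All 10 members were found in a Bos indicus gene table, used for names only. Alternatives varied background, normalization, filter, pairing, orientation and the pairs used. The fit was tested on simulated data.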

Additional observations from a re-analysis of the deposited data

Results flagged for a closer look

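ACVR1B stood apart in 1 pool pair: its ratio was -1.21 in pair 1 and between -0.76 and -0.69 in the other 3 pairs, a gap larger than Dixon's critical value allows for 4 values. It was 1 of 41 probes so examined, and chance gives about 1 in 20. No kept probe of a member was flagged.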

How the results depend on the processing

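The fit of single channels with a replicate block is the same test as the fit of ratios, because the scaling of levels leaves the ratios unchanged. Its 11847 changed probes and 31 changed pathway genes had to be the same and are no separate check. With no replicate block there were 7497 probes and 19 pathway genes. With 1 pair left out there were 6568 to 9688 probes and 15 to 26 pathway genes, the fewest without pair 4. Orientation differences numbered 17769 probes, 14105 to 16046 with 1 pair left out, 8789 with the stricter filter, which tests fewer probes, and 7532 in the authors' value table, where the cause was not tested. Dim probes limit the sizes. With an offset of 0 the ratio was -3.07 for TGFBR2, -1.36 for ACVR2A, 1.15 for CHRDL1, -3.71 for CDKN2B, -0.49 for BMPR1B and -0.38 for HEY1, and those of BMP2, GREM1, SKIL and all 3 BAMBI probes were larger as well. Median centring gave 0.64 for NBL1 and -0.91 for LEMD3. The mean over the kept probes of BMPR1B was -0.16.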
